A study of Rattus norvegicus with 63 samples.

Results

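Nrf2, the transcription factor encoded by Nfe2l2, and 9 further genes of the antioxidant response were followed across brain regions, stimulants and doses in rats that self-administered psychostimulants. The members were the 10 genes Nfe2l2, Keap1, Hmox1, Nqo1, Gclc, Gclm, Txnrd1, Srxn1, Gsr and Slc7a11, out of 14218 genes named on the array. They were named by symbol, and the probe set of each was chosen by its mean log2 signal over the 63 arrays, the brightest one that carried that symbol and no other. Of the members, 4 had further probe sets, all dimmer: the mean was 9.87 against 5.16 for Keap1, 9.47 against 7.60 for Gclc, 9.83 against 7.60 for Txnrd1, and 9.35 against 5.52 and 3.27 for Srxn1.

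RNA was measured on 63 Affymetrix arrays for rat genes, 31 from the prefrontal cortex (PFC) and 32 from the striatum (rostral caudate putamen with nucleus accumbens), which fall into 20 groups of 2 to 5. All rats were male Wistar rats, 4 weeks old on arrival and 6 weeks old when injections began. In the naive cohort every rat was injected with saline for 7 days. It was then conditioned in a place preference test with saline (5 arrays per region), amphetamine at 1.25 or 5 mg/kg, methamphetamine at 1.25 or 5 mg/kg, or methylphenidate at 5 mg/kg (3 arrays per group and region, 2 for methamphetamine 1.25 mg/kg in the PFC). In the pretreated cohort, amphetamine, methamphetamine or methylphenidate was injected at 5 mg/kg on those 7 days and used again at 5 mg/kg for conditioning, with 3 arrays per group and region. The 3 saline controls per region of that cohort received saline at every step, as the naive controls did. Infusions during self-administration were 0.1 mg/kg of amphetamine or methamphetamine, 0.25 mg of methylphenidate in 0.1 ml, or 0.1 ml saline. The labels state that the rats taken were those with the most robust self-administration, and they describe pooled RNA alongside rat numbers that nearly equal the array numbers. Whether an array stands for 1 rat or a pool is therefore not settled, and p-values measure the spread between these arrays.

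Keap1 is the adaptor that presents Nrf2 to a ubiquitin ligase, so that Nrf2 is degraded in unstressed cells. Oxidants and electrophiles modify Keap1, Nrf2 accumulates, and together with small Maf proteins it binds antioxidant response elements in the promoters and enhancers of its targets. Much of this control acts on the protein, which expression arrays do not measure. In brain, Nrf2 activity is known to be higher in astrocytes than in neurons. Amphetamines raise extracellular dopamine, whose oxidation yields reactive quinones and peroxide.

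The core letters of an antioxidant response element, TGACNNNGC on either strand, were searched in RefSeq promoters of the rat assembly GRCr8, from 250 bases before to 50 bases after each annotated start. Sequences were matched for 8 of the 10 members. Of 33469 promoters of that length 12.1% held the letters, and among the members they were found in those of Nfe2l2, Gclm and Txnrd1. The 3 matches are shown because Nrf2 is known to bind this element; capitals mark the core, which reads as its reverse complement, GCNNNGTCA, in Gclm and Txnrd1.
Gclm: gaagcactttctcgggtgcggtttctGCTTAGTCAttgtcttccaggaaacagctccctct
Txnrd1: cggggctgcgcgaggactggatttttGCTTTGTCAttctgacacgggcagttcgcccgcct
Nfe2l2: gactagccatTGACGCCGCctc
The Gclm stretch lies on the plus strand at chr2:213031937-213031997, and its core begins 172 bases before the annotated start. The Txnrd1 stretch lies on the minus strand at chr7:22755948-22756008, with its core 78 bases before one of that gene's annotated starts. The Nfe2l2 stretch lies on the minus strand at chr3:81028950-81028971, and its core begins at base 39 of the transcript. A match describes these letters only, and elements outside the window were not searched.

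Values are log2 of the MAS5 signal, so a difference of 1 is a doubling. Signals of different probe sets cannot be set against each other, and all comparisons are within a gene. A gene passed at a Benjamini-Hochberg adjusted p below 0.05 over the 8530 genes tested in limma. Hmox1 and Gsr lay among the 40% of genes of lowest signal in both regions and were not tested there, which left 8 of the 10 members tested. Their values below come from a fit without that signal filter. Replicate 1 of the naive striatal methamphetamine 1.25 mg/kg group looked cortical, with a mean of 9.16 over 7 striatal neuron markers, where the other 31 striatal arrays lay at 12.07 to 12.89. Leaving it out changed no count of members called. The array labelled striatum, naive, saline, replicate 1, has a description naming the PFC, but its striatal marker mean was 12.78. Naive arrays also split by the BioB spike-in control, with log2 signals of 9.37 to 10.6 on 23 arrays and 6.09 to 6.85 on 16. The lower signal was that of the naive groups given amphetamine or methylphenidate at 5 mg/kg and of saline replicates 4 and 5. Differences within each set of arrays are given only for members whose sign turned in a set, and other naive values pool both sets.

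The gene for Nrf2 itself was higher after stimulant pretreatment and self-administration in the striatum. There the 3 saline arrays read 9.90, 10.02 and 9.91. The amphetamine arrays read 10.43, 10.35 and 10.36, those of methamphetamine 10.28, 10.57 and 10.52, and those of methylphenidate 10.37, 10.46 and 10.45. Each of the 9 stimulant arrays lay above each saline array, and the gap between the groups, from 10.02 to 10.28, was wider than the range within saline. The mean of the 3 stimulant groups exceeded saline by 0.48 ± 0.08 (SE; 95% interval 0.32 to 0.64), a 1.39-fold difference with an adjusted p of 0.00481 in limma. In this comparison 0.363% of the genes tested passed, and Nfe2l2 was the only member among the 8 tested to do so. Complete separation upward was seen for 2.75% of the genes tested. Leaving out pretreated striatal saline replicate 1 or 3 raised the adjusted p to 0.0726 and 0.0695 in limma, with a difference of 0.46 in both runs, whereas the call held in the other 10 runs that each left out 1 array.

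**Figure D1:**
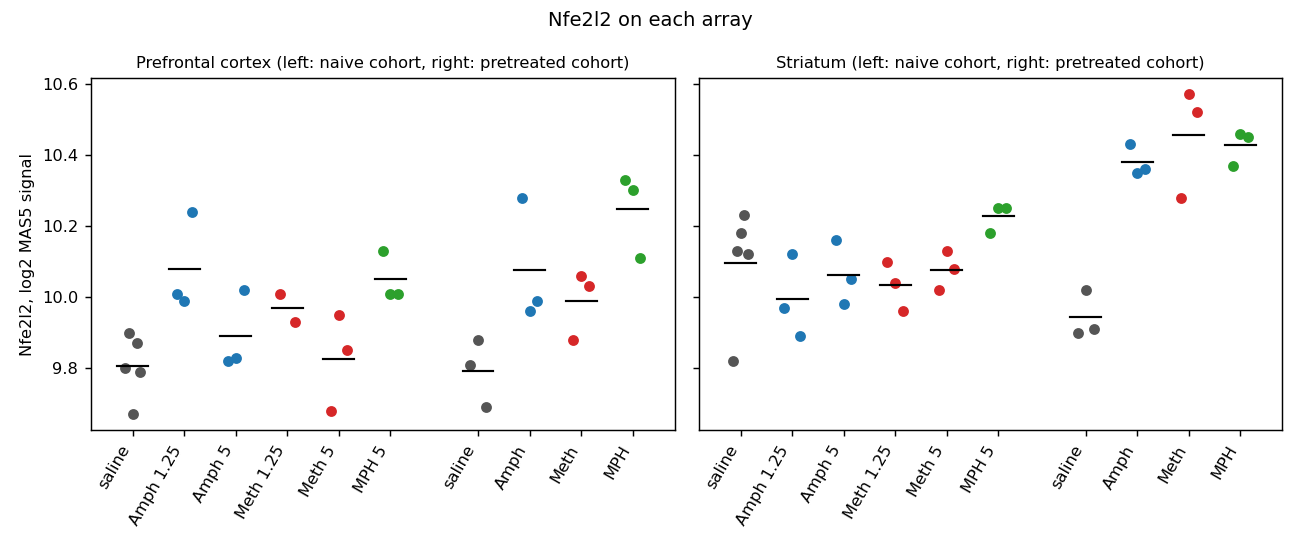
Log2 MAS5 signal of Nfe2l2 on each of the 63 arrays, by region, cohort and group; points are arrays and lines are group means. In the pretreated striatum the 9 stimulant arrays sit between 10.28 and 10.57, above the 3 saline arrays at 9.90 to 10.02.

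In single comparisons, striatal Nfe2l2 with methamphetamine exceeded saline by 0.52 (95% interval 0.32 to 0.72, adjusted p = 0.0243 in limma, where 0.703% of genes passed). With methylphenidate it exceeded saline by 0.48 (0.28 to 0.68, adjusted p = 0.0480 in limma, where 0.0821% passed). The methylphenidate call was lost without the signal filter, with all probe sets tested and without the intensity trend. It was also lost with the replicate number as a block. With the pretreated cohort alone, both calls were lost. Amphetamine differed from saline by 0.44 (0.24 to 0.64), which did not pass (adjusted p = 0.182), and no gene at all passed in that comparison. All 3 groups shared the same 3 saline arrays. The call for methamphetamine was lost in 5 of 6 runs that left out 1 of its arrays or of the saline arrays (differences of 0.46 to 0.61). That for methylphenidate was lost in 6 of 6 (0.46 to 0.52). The log2 ratio of the 3′ to the 5′ Gapdh control probe sets, a sign of RNA quality, was 0.74 to 1.04 on the saline arrays. It was 0.88 to 1.102 with amphetamine, 0.95 to 1.24 with methamphetamine and 1.07 to 1.17 with methylphenidate, the one group without overlap with saline, and its part in the Nfe2l2 values was not tested. Over all 16 comparisons of a stimulant group with its saline group, these were the 2 calls of members. In the single comparisons of the naive striatum 0% to 0.34% of all genes passed, with 0.328% for methamphetamine at 5 mg/kg.

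The stimulants were not told apart by Nfe2l2 in the pretreated striatum. Amphetamine and methamphetamine, which differ by an N-methyl group and were given at equal doses, differed by -0.08 (amphetamine minus methamphetamine, 95% interval -0.28 to 0.12). Methylphenidate has another chemical scaffold and its infusion dose was stated on another scale. Methamphetamine minus methylphenidate was 0.03 (-0.17 to 0.23) and amphetamine minus methylphenidate -0.04 (-0.24 to 0.15). Over the 14 comparisons between stimulants at the same conditioning dose, none of the 8 members tested passed. Genes overall passed at 0% in the 6 comparisons of the pretreated cohort. In the naive PFC 6.26% passed between amphetamine and methamphetamine at 1.25 mg/kg, 1.45% between them at 5 mg/kg and 1.85% between methamphetamine and methylphenidate. In the naive striatum that last comparison had 1.57% passing, and amphetamine against methamphetamine at 5 mg/kg 1.58%. All naive methamphetamine arrays had the higher BioB signal and the amphetamine and methylphenidate arrays at 5 mg/kg the lower, so at 5 mg/kg methamphetamine cannot be told apart from the spike-in set. Amphetamine and methylphenidate at 5 mg/kg, both of the lower signal, had 0% of genes passing in either region.

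In the pretreated PFC the Nfe2l2 signal of the stimulant groups was also above that of saline, but the difference did not pass. Saline arrays read 9.81, 9.88 and 9.69. The stimulant arrays ran from 9.88 to 10.33 with a median of 10.06, and 8 of 9 lay above every saline array. The mean difference was 0.31 ± 0.08 (SE; 95% interval 0.14 to 0.48, adjusted p = 0.282 in limma), with 0.0703% of genes passing. Methylphenidate arrays were the highest, at 10.33, 10.30 and 10.11, and their difference from saline was 0.45 (adjusted p = 0.0822), where 0.0938% of genes passed. Amphetamine differed by 0.28 (adjusted p = 0.571, 0.0234% of genes passing) and methamphetamine by 0.20 (adjusted p = 1.00, 0.0117% passing). Methamphetamine minus methylphenidate was -0.26 there (-0.46 to -0.05, adjusted p = 0.588). The striatal effect minus the PFC effect was 0.17 (-0.05 to 0.39, adjusted p = 0.969), so a larger effect in the striatum was not shown; no gene passed in that comparison.

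Naive rats showed no such difference in the striatum. Their saline arrays ran from 9.82 to 10.23 (median 10.13) and their 15 stimulant arrays from 9.89 to 10.25 (median 10.08), and the groups overlapped throughout. The mean difference was -0.02 ± 0.06 (SE; 95% interval -0.14 to 0.11) and no member passed, against 0.0938% of all genes. In the naive PFC it was 0.16 ± 0.07 (0.02 to 0.29, adjusted p = 0.511), where 13 of 14 stimulant arrays lay above the saline mean and 10 above every saline array. No member passed there either, with 0.0586% of genes passing.

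The pretreated effect on striatal Nfe2l2 exceeded the naive effect by 0.50 ± 0.10 (SE; 95% interval 0.29 to 0.70, adjusted p = 0.0475 in limma), with 0.0821% of genes passing. Both effects were means over stimulant groups, and the naive mean included groups at the lower conditioning dose, which the pretreated cohort did not have. Nfe2l2 was the only member to pass in this comparison, and none passed in the PFC, where the same difference was 0.15 (-0.06 to 0.37, adjusted p = 0.999). The call was lost in 23 of 32 runs that left out 1 striatal array (range 0.46 to 0.57, adjusted p of 0.00575 to 0.210). The lower saline level of the pretreated cohort, 9.94 ± 0.07 (SD, n = 3) against 10.10 ± 0.16 (SD, n = 5) in naive saline, is part of this difference. At the same conditioning dose, the cohort difference of striatal Nfe2l2 was 0.47 with amphetamine, 0.54 with methamphetamine and 0.35 with methylphenidate. None of these passed with all arrays kept (adjusted p of 0.120, 0.0838 and 0.226 in limma). Measured directly, the pretreated stimulant groups at 10.38 to 10.46 lay above every naive group. That sets raw levels of different cohorts side by side, where treatment cannot be told apart from other differences between the cohorts. Striatal Txnrd1 averaged 9.59 to 9.69 in the pretreated groups, saline included, and 9.83 to 10.07 in the naive groups.

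Ordered by level, the 3 pretreated stimulant groups led the striatum, with means of 10.46 for methamphetamine, 10.43 for methylphenidate and 10.38 for amphetamine. Their arrays overlapped with each other, but the amphetamine group did not overlap with the next group, naive methylphenidate at 10.23. From there down to pretreated saline at 9.94 each group overlapped with its neighbour. In the PFC the order ran from pretreated methylphenidate at 10.25 to pretreated saline at 9.79, and every group overlapped with the next. Both orders set levels of different cohorts side by side, with the limit given above.

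Keap1, the repressor of Nrf2, did not pass in any setting. Its mean differences were -0.02 (naive PFC), -0.01 (pretreated PFC), 0.04 (naive striatum) and 0.06 (pretreated striatum). In the pretreated striatum its saline arrays read 9.84, 9.82 and 9.86 and its stimulant arrays 9.71 to 10.02. The 95% interval of the mean difference there was -0.12 to 0.23. The dimmer Keap1 probe set gave -0.95 in the same comparison, which did not pass either.

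Among the classical targets, haem oxygenase 1 (Hmox1), which degrades haem to biliverdin, had a low signal and separated in the pretreated striatum without passing the test. Its saline arrays there read 6.58, 6.66 and 6.53. The amphetamine arrays read 7.24, 7.00 and 6.87, those of methamphetamine 7.07, 7.74 and 8.04, and those of methylphenidate 7.24, 7.13 and 6.79. All 9 stimulant arrays were above all saline arrays, and methamphetamine held the 2 highest. Such separation upward was seen for 2.24% of all 14218 genes. The mean difference was 0.64 ± 0.22 (SE; adjusted p = 0.196 in limma without the signal filter, where 0.232% of genes passed). For methamphetamine alone it was 1.02 (0.47 to 1.58, adjusted p = 0.0793). In the pretreated PFC the difference had the other sign, -0.36 (-0.79 to 0.08), with 7 of 9 stimulant arrays below every saline array. The striatal minus the PFC effect was 1.00 (0.38 to 1.61, unadjusted p = 0.00198), which did not pass adjustment (adjusted p = 0.696 in limma). In naive rats the differences were 0.19 in the PFC and 0.01 in the striatum.

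NAD(P)H quinone dehydrogenase 1 (Nqo1), which reduces quinones to hydroquinones, showed its largest striatal difference with methamphetamine. Pretreated saline arrays read 9.31, 9.38 and 9.30, and methamphetamine arrays 9.39, 10.15 and 10.10. Amphetamine arrays lay at 9.40 to 9.69 and methylphenidate arrays at 9.26 to 9.73, so that 8 of 9 stimulant arrays exceeded every saline array. The mean difference of 0.30 ± 0.13 (SE) did not pass (adjusted p = 0.247 in limma), nor did that of methamphetamine, 0.55 (0.23 to 0.87, adjusted p = 0.0898). The latter depended on methamphetamine replicate 1, the lowest of its group. Without it the difference was 0.79 (adjusted p = 0.00167 in limma). Methamphetamine then also exceeded methylphenidate, by 0.64 (adjusted p = 0.0246 in limma). With all arrays that difference was 0.40 (0.08 to 0.72, adjusted p = 0.529 in limma). The run without replicate 1 kept only the methamphetamine arrays at 10.15 and 10.10, and the share of all genes passing in it was not counted. With all arrays, 0.703% of genes passed for methamphetamine against saline and 0% against methylphenidate.

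In the naive PFC, Nqo1 was also highest with methamphetamine at 1.25 mg/kg. Its 2 arrays read 9.59 and 9.75, above the 5 saline arrays at 9.03 to 9.41. The difference, 0.43 (0.13 to 0.73), had an adjusted p of 0.0540 in limma, in a comparison where 11.1% of all genes passed. It passed with quantile normalization (0.48, adjusted p = 0.0426), with a 60% signal filter (0.0440), with the naive cohort alone (0.0323) and in 6 runs that left out 1 array (0.0296 to 0.0466), all in limma. The difference did not pass with a constant added to the signal, without the signal filter, with all probe sets tested or without the intensity trend. Nor did it pass with the replicate number or the spike-in set as a block. At 5 mg/kg the arrays read 9.23, 9.41 and 9.27, a difference from saline of 0.07. The methamphetamine groups of the 2 doses differed by -0.36 (5 minus 1.25 mg/kg, -0.69 to -0.04, adjusted p = 0.273).

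Sulfiredoxin (Srxn1), which restores over-oxidised peroxiredoxins, had positive mean differences in all 4 cohort and region settings, and none passed. They were 0.16 in the naive PFC, 0.32 in the pretreated PFC, 0.20 in the naive striatum and 0.15 in the pretreated striatum. In the pretreated PFC the saline arrays read 8.85, 9.14 and 8.92 and the stimulant arrays 9.12 to 9.55, with 8 of 9 above every saline array (adjusted p = 0.638 in limma). The naive values differed between the spike-in sets. Within the 23 arrays of higher BioB signal they were 0.41 in the PFC and 0.34 in the striatum, and within the 16 arrays of lower signal -0.22 and -0.01. The higher set held amphetamine at 1.25 mg/kg and both methamphetamine doses, the lower set amphetamine and methylphenidate at 5 mg/kg. Stimulant, dose and spike-in set therefore cannot be told apart here. In the lower set, saline was replicates 4 and 5 only. Naive saline arrays of the 2 sets differed likewise, at 9.04 or less against 9.37 and 9.60 in the PFC. With the spike-in set as a block, Srxn1 passed for naive PFC methamphetamine 1.25 mg/kg (0.49, adjusted p = 0.0309 in limma). That group has 2 arrays, and 11.1% of all genes passed in the same comparison without the block. Thioredoxin reductase 1 (Txnrd1), which keeps thioredoxin reduced, differed from saline by -0.003, 0.05, 0.09 and 0.08 in the same order of settings. Its dimmer probe set gave -0.21 in the naive striatum and -0.12 in the pretreated striatum, and none of these passed.

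**Figure D2:**
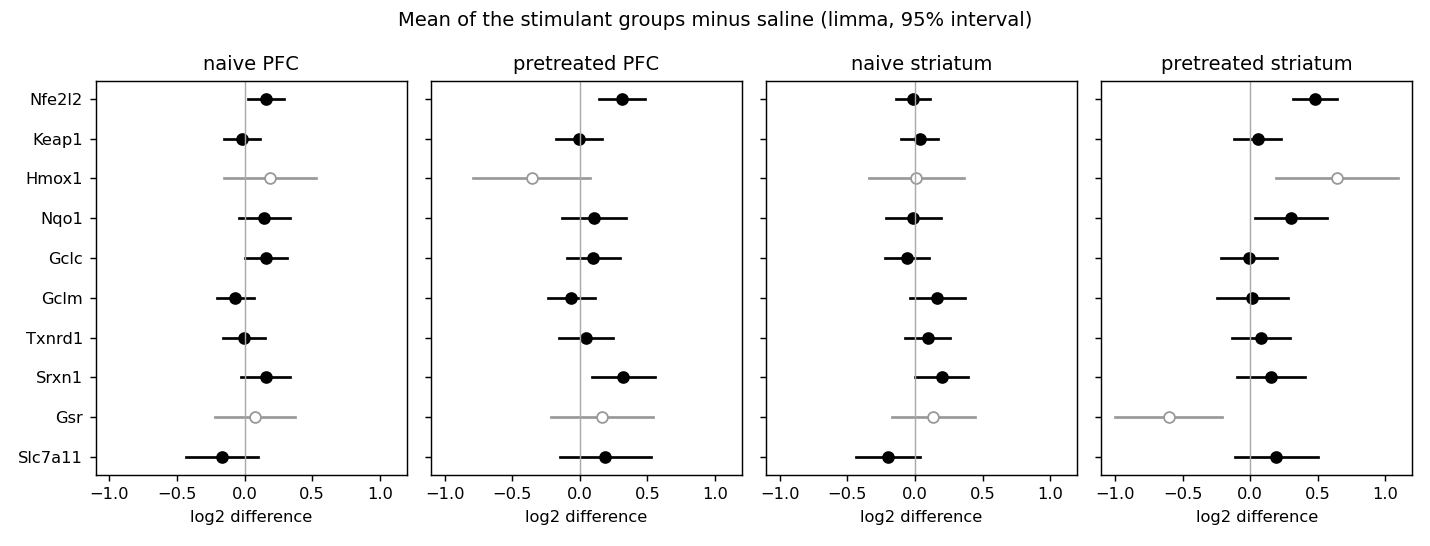
Log2 difference of the mean of the stimulant groups from saline for each member, with its 95% interval from limma, in the 4 cohort and region settings; open grey symbols are Hmox1 and Gsr, read without the signal filter. Nfe2l2 in the pretreated striatum, at 0.48, is the difference that passed.

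No gene of glutathione synthesis passed in these 4 settings. Gclc and Gclm, the catalytic and modifier subunits of the rate-limiting glutamate-cysteine ligase, differed from saline in the pretreated striatum by -0.01 (-0.21 to 0.20) and 0.01 (-0.25 to 0.28). In the other 3 settings Gclc lay between -0.06 and 0.16 and Gclm between -0.07 and 0.17. Slc7a11, the cystine-glutamate exchanger that brings in cystine for glutathione, had negative differences in naive rats, -0.17 in the PFC and -0.20 in the striatum. In pretreated rats both were 0.19, and none of the 4 passed. The cohort difference for Slc7a11 was 0.39 in the striatum (0.01 to 0.78, adjusted p = 0.294) and 0.36 in the PFC (-0.07 to 0.79).

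Glutathione reductase (Gsr), which regenerates glutathione from its disulfide, lay below saline in the pretreated striatum, at a low signal, without passing the test. Saline arrays read 7.02, 6.63 and 6.88. Amphetamine arrays read 6.30, 5.88 and 6.77, methamphetamine arrays 6.22, 6.25 and 6.26, and methylphenidate arrays 6.30, 6.00 and 6.18. All 9 were below the saline mean and 8 of 9 below every saline array. The difference was -0.60 ± 0.19 (SE; adjusted p = 0.161 in limma without the signal filter). In the pretreated PFC it was 0.17 and in the naive striatum 0.14.

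**Figure D3:**
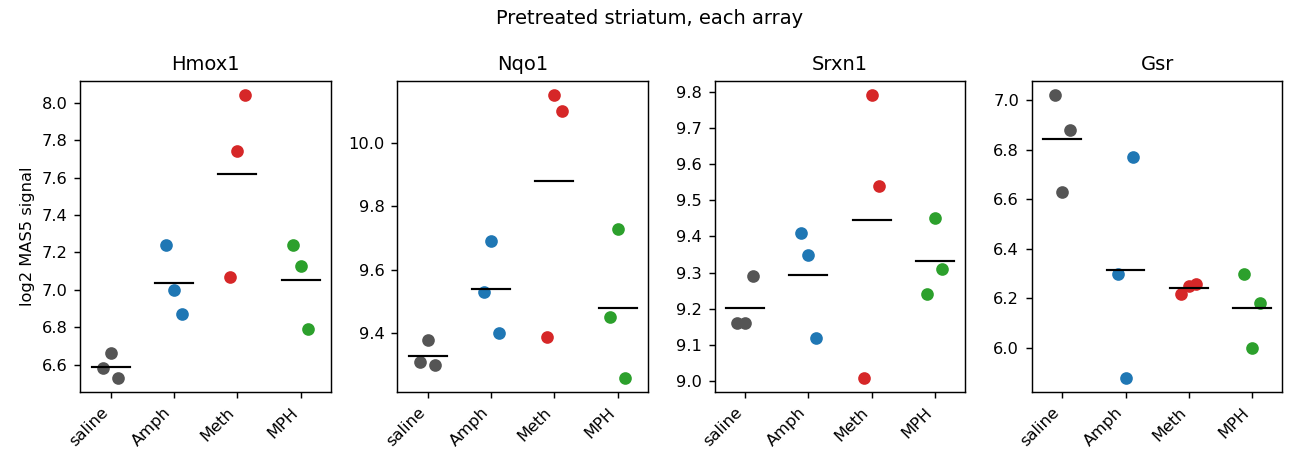
Log2 MAS5 signal of Hmox1, Nqo1, Srxn1 and Gsr on each of the 12 pretreated striatal arrays, with lines at group means and a separate axis range per gene. All 9 stimulant arrays exceed saline for Hmox1, 8 of 9 for Nqo1, and 8 of 9 lie below saline for Gsr.

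Over the 8 members tested in the pretreated striatum, 7 had a difference above 0 with a median of 0.117, beside a median of -0.012 and 47.3% above 0 over all genes tested. In the pretreated PFC 6 of 8 were above 0 (median 0.102), in the naive PFC 4 of 8 (0.072) and in the naive striatum 4 of 8 (0.012). None of the 8 passed in the 4 comparisons of 5 with 1.25 mg/kg, in which 7.07% (PFC) and 1.68% (striatum) of all genes passed for amphetamine and 0% for methamphetamine. The amphetamine arrays at 1.25 mg/kg all had the higher BioB signal and those at 5 mg/kg the lower, so dose and spike-in set cannot be told apart there, whereas both methamphetamine doses had the higher signal. For Nfe2l2 the 5 mg/kg groups differed from those at 1.25 mg/kg by -0.19 (amphetamine) and -0.14 (methamphetamine) in the PFC, and by 0.07 and 0.04 in the striatum.

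**Figure D4:**
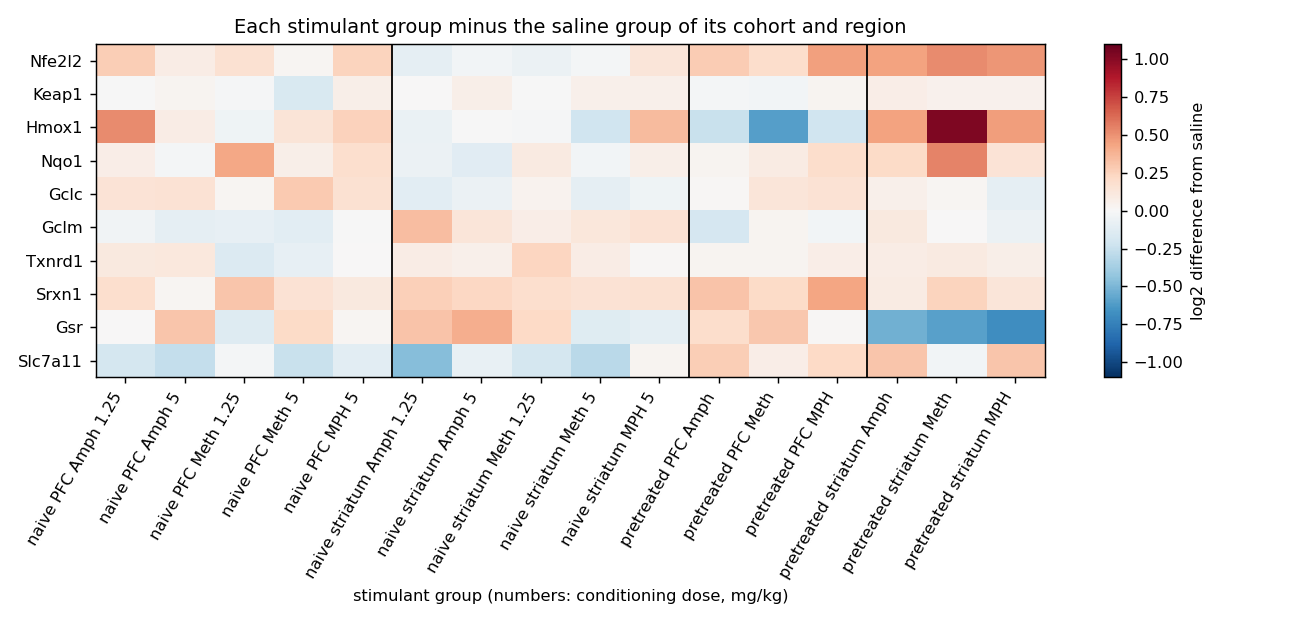
Log2 difference from saline of each member (rows) in each of the 16 stimulant groups (columns), red above and blue below saline; black lines part the naive PFC, naive striatum, pretreated PFC and pretreated striatum. The Nfe2l2 row is red in each pretreated group, and the strongest colour is Hmox1 with methamphetamine in the pretreated striatum, at 1.02.

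The wider antioxidant network was read from 8 lists: Nrf2 regulators, glutathione enzymes, thioredoxins and peroxiredoxins, superoxide dismutases with catalase, haem and iron genes, NADPH supply, detoxification enzymes, and targets of the stress factor Atf4. No gene of these lists passed in any of the 4 comparisons of mean stimulant with saline. The glutathione enzymes of the pretreated striatum had 21 of 27 tested genes above 0 and a median of 0.185, beside 47.3% above 0 and a median of -0.012 over all genes. Of the 27, 9 had an unadjusted p under 0.05 in either direction in limma, as had 1385 of all 8530 genes. The medians of that list elsewhere were 0.056 (naive PFC), 0.035 (pretreated PFC) and -0.009 (naive striatum). In the pretreated striatum the other medians were 0.045 (thioredoxins and peroxiredoxins), -0.012 (superoxide dismutases with catalase), 0.007 (haem and iron), -0.040 (NADPH supply), 0.021 (detoxification), 0.010 (Nrf2 regulators) and 0.009 (Atf4 targets).

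In comparisons of single stimulant groups with saline some list genes passed, and those named were picked after their values were seen. In the pretreated striatum with methamphetamine, where 0.703% of all genes passed, Mt2A, a metallothionein, was higher by 1.94. Ddit4, a stress-induced inhibitor of mTOR signalling, was higher there by 1.01, and Idh2, the mitochondrial NADP-dependent isocitrate dehydrogenase, by 0.60. In the naive PFC with methamphetamine 1.25 mg/kg, where 11.1% passed, 7 of 27 glutathione enzymes were higher and none lower, among them Gpx3 by 1.04 and Mgst1 by 0.98. Of 10 haem and iron genes there, Blvra and Mt3 were higher (0.60 and 0.68) and Slc40a1 and Alas1 lower (-0.97 and -0.45). Of 11 Atf4 targets Ddit3 was higher (0.47) and Vldlr and Asns lower (-0.50 and -0.64). Btrc, an Nrf2 regulator, was lower (-0.50) and Msrb2 of the thioredoxin list higher (0.45). In the naive striatum Idh1 was lower with amphetamine 1.25 mg/kg (-0.54, where 0.34% of genes passed) and Ddit3 higher with methamphetamine 5 mg/kg (0.57).

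Cell type markers moved with Nfe2l2 in the pretreated striatum. The mean log2 signal of 8 astrocyte markers was 11.71 to 11.91 on saline arrays and 11.95 to 12.18 on stimulant arrays, without overlap. All 8 had a positive difference (median 0.207), although none passed. Over all genes tested in this comparison, 47.3% were above 0 and 2.75% separated upward. Genes of a list share the same arrays, so the counts given here are descriptions with no test. Microglial markers averaged 9.07 to 9.23 against 9.12 to 10.05, with 7 of 7 tested above 0 (median 0.389). Striatal neuron markers averaged 12.46 to 12.65 against 12.07 to 12.40, with 7 of 7 below 0 (median -0.273). Cortical neuron markers averaged 6.73 to 7.39 against 6.98 to 8.38, a difference of 0.72 between the means. Bhlhe22 averaged 7.86 with saline and 9.19 with stimulants, Slc17a7 6.94 and 8.12, and Neurod6 6.62 and 7.59. Tbr1, at a low signal, averaged 1.62 and 1.90, and Nrgn 11.76 and 11.61. The part of all these marker lists in the Nfe2l2, Hmox1, Nqo1, Gsr and glutathione enzyme values of the pretreated striatum was not tested. In dissected tissue fewer cells of a type and less RNA per cell cannot be told apart. In the pretreated PFC, where Nfe2l2 differed by 0.31, the astrocyte median was 0.045 and the microglial median -0.013. In the naive striatum, where Nfe2l2 differed by -0.02, the astrocyte median was -0.143. Oligodendrocyte markers of the pretreated striatum averaged 12.55 to 12.91 against 12.33 to 12.82, and endothelial markers 8.57 to 8.70 against 7.64 to 9.13. Haemoglobin beta, a sign of blood in the tissue, was 13.20 to 13.67 in pretreated striatal saline and 12.19 to 13.55 with stimulants. Its mean differed from saline by -0.63 in the pretreated PFC. In naive rats it differed by 1.77 in the PFC, where saline arrays ran from 9.22 to 13.77 and stimulant arrays from 12.14 to 14.49. In the naive striatum it differed by 1.54 (9.48 to 13.57 against 12.69 to 14.47). The part of blood in the member values was not tested.

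**Figure D5:**
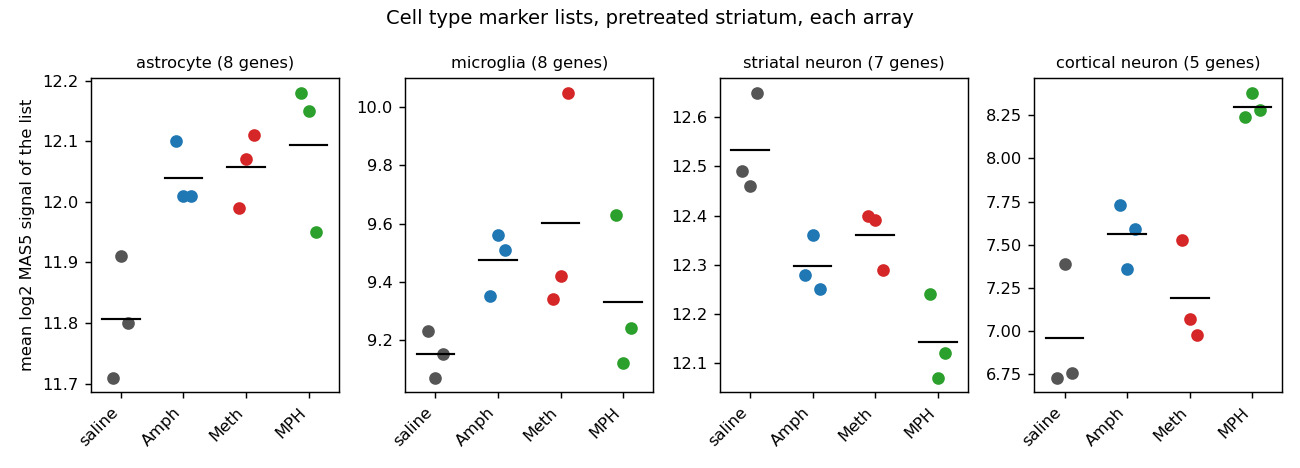
Mean log2 MAS5 signal of 4 cell type marker lists on each of the 12 pretreated striatal arrays, with lines at group means and a separate axis range per list. Astrocyte markers sit at 11.95 to 12.18 with stimulants against 11.71 to 11.91 with saline, and striatal neuron markers at 12.07 to 12.40 against 12.46 to 12.65.

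In saline rats the members differed little between regions, measured as striatum minus PFC. Nfe2l2 was higher in the striatum of naive rats, at 9.82 to 10.23 against 9.67 to 9.90, by 0.29 (95% interval 0.14 to 0.44, adjusted p = 0.00136 in limma). Gclc was higher by 0.37 (0.18 to 0.55, adjusted p = 0.00110 in limma), with arrays at 9.52 to 9.80 against 9.09 to 9.40. Gclm was lower by -0.28 (-0.48 to -0.08, adjusted p = 0.0207), with 7.75 to 8.01 in the striatum and 8.03 to 8.25 in the PFC. These 3 of 8 members stood beside 40.4% of all genes that passed between the regions. The Gclm call was lost with a 60% signal filter, which left Gclm untested, and without naive PFC saline replicate 3 (adjusted p = 0.0517) or naive striatal saline replicate 5 (0.0577). In the pretreated cohort, where 27% of genes passed, Gclc passed again (0.31, adjusted p = 0.0434), and Nfe2l2 (0.15) and Gclm (-0.28) did not. That Gclc call was lost in 4 of the 6 runs without 1 saline array, namely PFC replicates 1 and 3 and striatal replicates 2 and 3.

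Larger regional differences lay outside the members. In naive saline rats, Cbr3, a carbonyl reductase, was higher in the striatum by 2.81. Mgst1 and Gpx1, a microsomal glutathione transferase and a glutathione peroxidase, were higher by 1.14 and 0.90. Ggt7 of the gamma-glutamyltransferase family was lower by -1.08, Blvra, which reduces biliverdin to bilirubin, by -1.03, and Mgst3 by -0.91. The same comparison in the pretreated cohort gave 2.60, 0.98, 0.57, -1.004, -1.20 and -0.87, and all 6 genes passed in both cohorts. In the pretreated cohort the 3 largest differences in each direction also included Ephx1, an epoxide hydrolase (1.02), and Glrx, a glutaredoxin (-1.08). Of the glutathione enzymes, 8 of 27 were higher and 4 lower in naive rats, near the 40.4% of all genes that passed there in either direction.

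The genes most like each member over the 63 arrays, after centring each gene on its region and cohort, were found by Pearson's r among 8233 genes. For Nfe2l2 they were Idh2 (0.730), Atp6v0e1 (0.699) and Rin2 (0.697). For Nqo1 they were Phactr3 (0.760), Hsd17b11 (0.757) and Paqr8 (0.756), and for Srxn1 Sult5a1 (0.740), Gpd1 (0.712) and Gpatch4 (0.705). Slc7a11 was nearest to Slc20a1 (0.654), Fmnl2 (0.637) and P2ry12 (0.631), and Keap1 to Tmem276 (0.611), Tmed4 (0.591) and Nicn1 (0.573). For Gclm they were Abhd6 (0.582), Taf9b (0.561) and Fbl (0.552), for Txnrd1 Ece1 (0.558), Ampd2 (0.546) and 6430548M08Rikl (0.545), and for Gclc Fnbp1 (0.492), Phf2 (0.489) and Fgfr1 (0.482). Between members, the highest were 0.580 (Nfe2l2 with Nqo1), 0.486 (Nqo1 with Srxn1) and 0.425 (Nfe2l2 with Srxn1). These are descriptions with no test: the genes share the same arrays and each array's scaling. The centring removed neither the differences between saline and stimulant groups nor the split of naive arrays by BioB signal. Genes that differ from saline in the same groups can therefore correlate through that difference. The array of cortical profile was kept.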

How the data were processed

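Each of the 63 arrays was deposited as MAS5 intensity on a linear scale, 1 value a probe set, made per the submitters' processing notes (version not given in the sources used here). MAS5 scales each array to a common target, so a change in total RNA cannot be seen; array medians were 120.4 to 155.6. From these values, 18232 signals under 1 were set to 1 and log2 was taken. Of 31099 probe sets, 20832 carry 1 gene symbol, 436 several and 9831 none in the platform annotation, which gave 14218 genes, each read from its brightest probe set. The 40% of genes of lowest mean per region were left out, leaving 8530. Comparisons were fitted across genes in R 4.3.3 with limma 3.58.1 (eBayes with an intensity trend), with all arrays of a region in 1 fit (residual degrees of freedom 21 for PFC, 22 for striatum and 43 for the fit of both), Benjamini-Hochberg adjustment over all genes tested, and were checked on simulated data. The number of arrays limits precision. Named genes were all members, up to 3 genes per direction from the wider lists among those that passed, and the 3 nearest genes per member. Members and lists were chosen with earlier results of these data known.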

Additional observations from a re-analysis of the deposited data

Results flagged for a closer look

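Among 20 groups of members checked (groups of 4 to 10 arrays), 1 array stood apart: naive striatal saline replicate 1 read 9.82 for Nfe2l2, while the other 4 lay at 10.12 to 10.23, a gap of 0.75 of the range. Chance sets about 1 in 20 groups apart in this way. This is the array whose description names the PFC. Without it the naive striatal Nfe2l2 difference was -0.09 and the naive regional difference 0.36 (adjusted p = 8.76e-05 in limma).

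The Nfe2l2 effect differed between the pretreated and naive striatum by 0.50 in the test of the difference itself, as given above with the runs in which the call was lost. The naive mean in that test included the lower conditioning dose, and no single stimulant passed at the same dose with all arrays kept.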

How the results depend on the processing

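The Nfe2l2 difference in the pretreated striatum kept its call under all 10 alternatives that used all replicates or dropped the array of cortical profile, at 0.47 to 0.50 with adjusted p of 0.00276 to 0.0175 in limma. Counts of the 10 members called moved as follows. For single stimulants against saline (2 calls) it was 1 with no filter, with all probe sets tested, without the trend and with only the cohort compared, where the call was Nqo1 for naive PFC methamphetamine 1.25 mg/kg (0.43, adjusted p = 0.0323), and 0 to 3 leaving out 1 array. It was 3 with quantile normalization and with the 60% filter, both adding that Nqo1 call, and with the spike-in set as a block, adding Srxn1. The added calls were all of that naive PFC group, where 11.1% of all genes passed in the main fit. For the cohort difference (1 call) it was 0 with all probe sets, without the trend and with the replicate block, and 0 to 3 leaving out 1 array. For the pretreated saline regions (1 call) it was 2 with quantile normalization, 0 with no filter and with all probe sets, and 0 to 1 leaving out 1 array. Leaving out 1 array gave 0 to 1 for the pretreated striatal mean and between stimulants, and 2 to 3 for the naive saline regions, where the 60% filter gave 2.

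The labels do not say that a replicate number marks a shared rat or pool. Same-numbered arrays of the 2 regions had a median correlation of 0.205, with 25 of 31 above 0.1 and the lowest at -0.584, against a median of -0.106 and 16 of 72 for other numbers. This is a hint of shared numbers across regions, though not for every pair. Within a region the median for shared numbers was -0.001. With the replicate block Nfe2l2 kept 0.48 in the pretreated striatum (adjusted p = 0.0157 in limma). Srxn1 passed for naive PFC methamphetamine 1.25 mg/kg (0.52, adjusted p = 0.0403 in limma), a comparison where 11.1% of all genes passed without the block. The methylphenidate call of Nfe2l2 was lost, so the count of single calls stayed at 2.

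Signs that turned were all of differences that had not passed. With the second probe set they were Keap1 (0.96 pretreated PFC, -0.74 naive striatum, -0.95 pretreated striatum), Gclc (-0.02 naive PFC, -0.02 pretreated PFC), Txnrd1 (0.05 naive PFC, -0.21 naive striatum, -0.12 pretreated striatum) and Srxn1 between regions (-0.16 naive, -0.63 pretreated). Quantile normalization gave Txnrd1 0.01 in the naive PFC and Gclc 0.02 in the pretreated striatum, and the added constant Nqo1 0.00 between pretreated regions. The replicate block gave Keap1 0.08 in the naive PFC and, in the naive striatum, Gclc 0.01, Nfe2l2 0.04 and Nqo1 0.06. Within the arrays of higher BioB signal Keap1 was 0.04 (naive PFC), Gclc 0.01 and Nqo1 0.08 (naive striatum). Within those of lower signal Srxn1 was -0.22 and Txnrd1 0.11 in the naive PFC, and Keap1 -0.08 and Srxn1 -0.01 in the naive striatum. Leaving out 1 array spanned 0 for Txnrd1 (-0.04 to 0.04) and Keap1 (-0.10 to 0.02) in the naive PFC, Nfe2l2 (-0.09 to 0.02) and Nqo1 (-0.08 to 0.04) in the naive striatum, and Keap1 (-0.03 to 0.02) and Txnrd1 (-0.02 to 0.09) in the pretreated PFC. It also did so for Gclc (-0.06 to 0.04) and Gclm (-0.07 to 0.06) in the pretreated striatum, and between pretreated regions for Nqo1 (-0.10 to 0.12) and Slc7a11 (-0.03 to 0.37). The cause was not tested.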
